A study of Mus musculus with 8 samples.

Results

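Homologous recombination and Fanconi repair genes are described here as a named group of 37 mouse genes, listed by function, with earlier results of these data known. The group holds the BRCA mediators, the strand exchange factors, the Fanconi core and ID2 complexes, a helicase with its partner nucleases, the MRN complex, the checkpoint kinases with their activators, and the lesion bypass ligase gene Rad18. Of the 37 members, 36 had a probe set, and 34 passed the filter on dim signal among 11027 genes tested. Bard1 and Brip1 lay below that filter, and Xrcc2 was not analysed here.

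The samples were whole spleens of 8-week-old mice, hybridised to Affymetrix expression arrays with 45101 probe sets. The 4 Nix_KO arrays (numbered 10, 2, 3 and 6) held RNA from mice null for Nix, also called Bnip3l, a mitochondrial outer membrane protein that reticulocytes need to clear their mitochondria. The 4 WT arrays (numbered 3, 4, 5 and 6) held RNA from wild-type control mice. No animal received a treatment, RNA extracts were not pooled, and strain, sex and the deleted stretch of the gene are not given in the sources used here.

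Homologous recombination repairs a broken chromosome by copying the sister chromatid: the MRN complex opens the ends, BRCA1, PALB2 and BRCA2 prepare the exposed strand for pairing, and helicases and nucleases resolve the joined molecules. The Fanconi anaemia pathway handles crosslinks that bind both strands, with a core ubiquitin ligase that marks FANCD2 and FANCI. These genes are known to be most active in dividing cells, in S and G2 phase, and in the mouse spleen the dividing cells include erythroblasts, myeloid precursors and activated lymphocytes.

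As examples, promoter sequence is shown for the 3 members with the smallest adjusted p among those with a single promoter entry. Atm, which fell, is shown beside them. The lines give the 100 bases before the annotated start for Clspn (chr4:126556880-126556979, plus strand), Rad51ap1 (chr6:126939588-126939687, minus strand), Chek1 (chr9:36726659-36726758, minus strand) and Atm (chr9:53536672-53536771, minus strand), from RefSeq on GRCm38.p6. Capitals mark CCAAT or its reverse complement, the letters of the box bound by NF-Y. An unmarked line has no match in the printed 100 bases only. Farther out, Atm has a CCAAT match 165 to 161 bases before its start, and Rad51ap1 has a further one at 230 to 226. Chek1 has no CCAAT match in the longer stretch searched below.
Clspn: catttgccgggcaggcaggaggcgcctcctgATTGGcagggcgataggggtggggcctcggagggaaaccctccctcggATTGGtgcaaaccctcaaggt
Rad51ap1: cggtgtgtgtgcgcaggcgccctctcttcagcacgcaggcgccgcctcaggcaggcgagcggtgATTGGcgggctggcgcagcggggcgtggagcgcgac
Chek1: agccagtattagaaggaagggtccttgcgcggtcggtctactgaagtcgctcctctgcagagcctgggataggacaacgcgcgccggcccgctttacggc
Atm: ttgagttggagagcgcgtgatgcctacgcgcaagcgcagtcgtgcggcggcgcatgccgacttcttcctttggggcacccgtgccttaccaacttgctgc

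Promoter entries were found for 30 members, 33 entries in all, and the 250 bases before each start were searched on both strands. The letters of an E2F site, TTTCCCGC or TTTCGCGC or TTTGCCGC or TTTGGCGC, occurred in 5 of the 33 entries (15.2%), against 2.35% of 21262 protein-coding entries and 1.86% of all 32851 entries. The entries were not matched for base composition, for these letters or those below, and its part in the shares was not tested. E2F factors drive genes of S phase, and the 5 matches are shown with their surrounding 80 bases. They lie in the promoters of Bard1 (chr1:71103138-71103217, minus strand), Fancg (chr4:43010310-43010389, minus strand), Chek2 (chr5:110839795-110839874, plus strand), Brca2 (chr5:150522417-150522496, plus strand) and Topbp1 (chr9:103305162-103305241, plus strand). Capitals mark the E2F letters, the CHR letters TTTGAA in Bard1 and the CCAAT letters in Chek2, each as read on the printed strand.
Bard1: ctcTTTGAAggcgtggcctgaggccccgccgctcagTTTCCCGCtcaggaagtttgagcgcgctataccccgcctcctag
Fancg: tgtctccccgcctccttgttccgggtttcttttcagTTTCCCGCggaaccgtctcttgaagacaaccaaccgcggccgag
Chek2: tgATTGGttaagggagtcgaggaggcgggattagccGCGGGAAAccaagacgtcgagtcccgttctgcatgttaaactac
Brca2: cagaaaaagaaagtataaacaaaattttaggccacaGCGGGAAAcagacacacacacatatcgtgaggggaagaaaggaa
Topbp1: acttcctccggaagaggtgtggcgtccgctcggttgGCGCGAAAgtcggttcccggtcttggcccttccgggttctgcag

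CCAAT occurred in 17 of the 33 entries (51.5%), against 35.4% of protein-coding entries. The CHR letters TTTGAA, bound by the complex that times mitotic genes, occurred in 1 entry (3.03%, Bard1) against 14.5%. Letters of a GATA site (AGATAA or TGATAA or AGATAG or TGATAG) occurred in 4 entries (12.1%) against 23.6%. Some entries are overlapping windows of the same gene, so these counts are of entries, not genes. The Rad18 entries share a GATA match, and the Rad54l entries share a CCAAT match. The E2F letters stood in 3 of the 23 entries of members that rose and in 1 of the 7 entries of members that did not pass the test. The searched E2F, CHR, CCAAT and GATA letters do not overlap one another in the printed windows, and a match describes letters only.

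Array medians lay between 28.85 and 30.61 intensity units, and 48.6% to 49.3% of probe sets reached a log2 intensity of 5 on each array. The 3 probe sets that detect Bnip3l are annotated jointly with its pseudogene Bnip3l-ps and differed by 0.58, 0.43 and -0.50 on the log2 scale (limma adjusted p = 0.117, 0.158 and 0.164), so they did not check the genotype labels. Spleen B cell genes were bright on all 8 arrays, with a list mean of 9.90 to 11.77. Pancreatic acinar genes, which should be near background in spleen, had a list mean of 12.85 on Nix_KO 3, 11.67 on WT 3 and 9.63 on WT 5, against 5.08 to 7.10 on the other 5 arrays. Results that depend on those 3 arrays are given with and without them. All levels below are log2 of the deposited intensity, and changes are Nix_KO minus WT, with the standard error (SE) and an adjusted p from limma over all 11027 genes.

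Recombination and Fanconi genes were mostly higher in Nix null spleen. Of the 34 tested, 24 rose, 2 fell (Rad51d and Atm) and 8 did not pass the test, and 14 of the 24 rose at least 2-fold with values below 5 set to 5. Over all genes tested, 38.3% passed, 14.2% rose and 24.1% fell, against 76.5% of the members passing and 70.6% rising. The members' median change was 0.86, from -1.39 (Atm) to 2.12 (Clspn), beside a median of -0.15 over all genes. The 4 Nix_KO arrays lay entirely above the 4 WT arrays for 21 members and entirely below for Rad51d; 15.7% of all genes did the first and 39.6% either. Leaving out the 3 arrays with pancreatic signal left 17 of the 24 rising members past the threshold, with 7.67% of all genes rising. These are levels in bulk tissue, in which fewer cells of a type and less RNA per cell cannot be told apart.

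**Figure D1:**
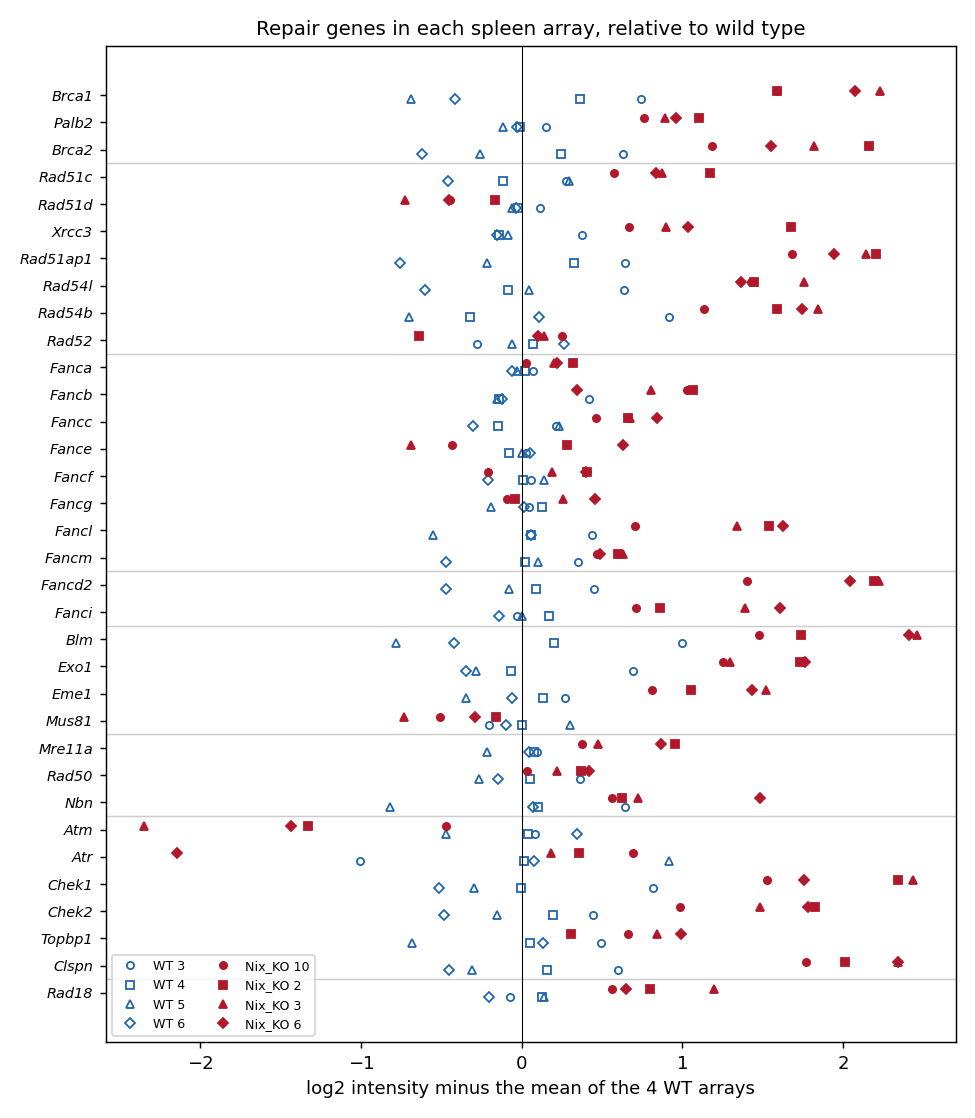
Each row is 1 tested member and each point 1 spleen array; the horizontal axis is its log2 intensity minus the mean of the 4 WT arrays (open symbols WT, filled symbols Nix_KO). Most rows have all filled symbols to the right of the open ones, as for Clspn and Chek1, while Atm lies to the left.

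BRCA mediators rose in 3 of 3 tested. Brca1, a scaffold of the break repair complexes, read 9.58, 9.58, 10.22 and 10.06 on Nix_KO arrays 10, 2, 3 and 6, and 8.73, 8.35, 7.30 and 7.57 on WT arrays 3, 4, 5 and 6. The groups did not overlap, and WT 3 was the highest control. Brca1 was 3.67-fold higher, a log2 change of 1.87 ± 0.31 (SE, n = 4 per group; limma adjusted p = 0.002).

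Brca2, which acts at resected ends, read 8.13, 9.11, 8.77 and 8.50 in the null arrays and 7.58, 7.19, 6.69 and 6.33 in the controls, in the same array order. Every null array again lay above every control, a change of 1.68 ± 0.29 (limma adjusted p = 0.00226). Palb2, the bridge between the BRCA proteins, changed less but with little spread. Its null arrays lay between 7.27 and 7.61 and its control arrays between 6.39 and 6.66, a change of 0.93 ± 0.14 (limma adjusted p = 0.00162).

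Bard1, the partner that BRCA1 needs to act as a ubiquitin ligase, and the BRCA1-bound helicase gene Brip1 were too dim for the filter. Bard1 read 4.01, 4.83, 3.47 and 4.48 in the null arrays and 3.43, 2.83, 3.04 and 2.93 in the controls. Brip1 read 5.01, 5.69, 4.78 and 5.27 against 4.4, 3.69, 4.15 and 4.71. Neither pair of groups overlapped, but Bard1 stayed below 5 on all 8 arrays and Brip1 on all 4 controls, so no size of change is given for either. In the fit without a filter, where 8.75% of all genes rose, their limma adjusted p was 0.0212 and 0.0303, and Nbn and Topbp1 no longer passed.

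Strand exchange factors split: 5 of 7 rose, 1 fell and 1 did not pass. Rad51ap1, which stimulates strand invasion, had the largest change of the set. It read 10.24, 10.76, 10.70 and 10.50 in the null arrays and 9.20, 8.88, 8.34 and 7.80 in the controls. Every null array lay above every control, a change of 2.00 ± 0.28 (limma adjusted p = 0.00132).

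Rad54l, a motor protein that acts in strand exchange, read 9.34, 9.36, 9.67 and 9.28 against 8.55, 7.83, 7.96 and 7.31. It rose by 1.5 ± 0.24 (limma adjusted p = 0.00184) with no overlap. Its paralog Rad54b read 5.38 to 6.09 in the null arrays but reached 5 on only 1 of 4 control arrays. With values below 5 set to 5, Rad54b was at least 1.72-fold higher (limma adjusted p = 0.00398 on the values as deposited).

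Xrcc3 and Rad51c, which act together in one complex, rose by 1.07 ± 0.23 and 0.87 ± 0.20 (limma adjusted p = 0.00526 and 0.0086). For both, the lowest null array lay above the highest control. Rad51d, a further strand exchange factor, went the other way. It read 6.73, 7.01, 6.45 and 6.72 in the null arrays and 7.29, 7.15, 7.11 and 7.14 in the controls, with no overlap. The fall of 0.45 ± 0.15 passed narrowly (limma adjusted p = 0.0422) and was lost on leaving out any array but Nix_KO 2, with adjusted p between 0.0639 (without Nix_KO 6) and 0.0973 (without WT 3). It was 0.271 at a change of -0.33 without the 3 arrays with pancreatic signal. With arrays centred on their medians its adjusted p was 0.173. The other tested Rad51d probe sets overlapped between groups and changed by -0.38 and 0.04 (limma adjusted p = 0.101 and 0.933 over probe sets). The mean of its probe sets changed by -0.26 (limma adjusted p = 0.178). Rad52, an annealing factor, overlapped between groups at 6.37 to 7.26 and 6.73 to 7.27.

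Fanconi genes differed by complex. Both members of the ID2 pair rose, while 4 of 8 core complex genes rose and 4 did not pass. Fancd2, the protein that the core complex ubiquitinates, read 6.40, 7.19, 7.22 and 7.04 in the null arrays and 5.45, 5.09, 4.92 and 4.53 in the controls. No null array reached down to the controls, and 2 control arrays were below 5. Fancd2 rose by 1.97 ± 0.24 (limma adjusted p = 0.00116), or at least 3.55-fold with values below 5 set to 5.

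Its partner Fanci read 6.38, 6.53, 7.06 and 7.28 against 5.64, 5.84, 5.67 and 5.53. The gap between groups was clear, a change of 1.14 ± 0.21 (limma adjusted p = 0.00287), though without the 3 arrays with pancreatic signal the adjusted p was 0.0623 at a change of 1.04.

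Among core genes, Fancl stood out: it encodes the ubiquitin ligase subunit itself. Fancl read 8.35, 9.18, 8.98 and 9.27 in the null arrays and 8.08, 7.70, 7.09 and 7.70 in the controls, a change of 1.30 ± 0.25 (limma adjusted p = 0.00358) with no overlap. Fancb, a subunit bound to FANCL, read 6.69, 6.73, 6.47 and 6.01 against 6.08, 5.52, 5.51 and 5.54. WT 3 lay above Nix_KO 6, so its groups overlapped at a change of 0.81 ± 0.20 (limma adjusted p = 0.0113, and 0.0571 without the 3 arrays).

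Fancc rose by 0.66 ± 0.17 (limma adjusted p = 0.0121) with groups apart. Fancm, the translocase that anchors the core complex to DNA, rose by 0.55 ± 0.18 (limma adjusted p = 0.0358). That call was lost on leaving out any array but WT 3, with adjusted p from 0.0502 (without Nix_KO 10) to 0.105 (without WT 6), and 0.0621 without the 3 arrays. The remaining core genes, Fanca, Fance, Fancf and Fancg, had overlapping groups and changes of 0.19, -0.05, 0.20 and 0.14 (limma adjusted p = 0.277, 0.897, 0.392 and 0.512). Fance varied more among null arrays, from 6.29 to 7.61, than among controls, from 6.90 to 7.03.

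The helicase gene Blm, whose product unwinds joined molecules and is lost in Bloom syndrome, read 8.00, 8.26, 8.98 and 8.93 against 7.52, 6.72, 5.74 and 6.10. WT 3 was again the highest control but stayed below every null array. Blm rose 4.06-fold, a change of 2.02 ± 0.37 (limma adjusted p = 0.00289).

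The end-resecting nuclease gene Exo1 and the nuclease subunit gene Eme1 rose by 1.51 ± 0.24 and 1.20 ± 0.20 (limma adjusted p = 0.0019 and 0.00215), each without overlap. Mus81, the catalytic partner of EME1, did not follow. It read 7.33, 7.68, 7.11 and 7.55 in the null arrays and 7.64, 7.84, 8.14 and 7.74 in the controls, a change of -0.42 ± 0.18 (limma adjusted p = 0.0805). Without Nix_KO 2 its adjusted p was 0.0493 at a change of -0.51. Both Mus81 probe sets were lower in Nix null spleen and neither passed.

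The MRN complex changed less. Mre11a, its nuclease, read 7.57, 8.15, 7.67 and 8.06 against 7.29, 7.27, 6.98 and 7.24, a change of 0.67 ± 0.17 (limma adjusted p = 0.0127, and 0.0939 without the 3 arrays). Rad50, the tethering subunit, had overlapping groups and a change of 0.26 ± 0.17 (limma adjusted p = 0.258). Nbn, which recruits ATM, read 6.50, 6.56, 6.66 and 7.42 against 6.58, 6.04, 5.12 and 6.01.

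Nix_KO 6 was high and WT 5 low for Nbn, and the groups overlapped. Its change of 0.85 ± 0.31 sat at the threshold (limma adjusted p = 0.0497). It was lost on leaving out Nix_KO 2, Nix_KO 3, Nix_KO 6, WT 4, WT 5 or WT 6, with adjusted p from 0.0648 to 0.121, and was 0.0482 without Nix_KO 10 and 0.0209 without WT 3. It was 0.116 without the 3 arrays with pancreatic signal.

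Checkpoint genes held the largest rise and the largest fall of all members. Clspn encodes claspin, the adaptor through which ATR activates CHEK1. It read 8.57, 8.81, 9.14 and 9.14 in the null arrays and 7.40, 6.96, 6.49 and 6.35 in the controls, well apart. Clspn was 4.34-fold higher, a change of 2.12 ± 0.24 (limma adjusted p = 0.00112).

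Chek1, the kinase that claspin serves, read 7.71, 8.53, 8.62 and 7.94 against 7.0, 6.18, 5.89 and 5.67, a change of 2.02 ± 0.30 (limma adjusted p = 0.00161). Chek2, the kinase downstream of ATM, read 7.77, 8.61, 8.27 and 8.57 against 7.23, 6.98, 6.63 and 6.30, a change of 1.52 ± 0.25 (limma adjusted p = 0.00196). For both kinases the groups were apart, with Nix_KO 10 the lowest null array and WT 3 the highest control.

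Topbp1, the activator of ATR, was abundant in all spleens and rose less. It read 10.89, 10.53, 11.07 and 11.22 against 10.72, 10.28, 9.54 and 10.36, with overlap, a change of 0.70 ± 0.25 (limma adjusted p = 0.0476). The call held only without Nix_KO 2 (0.0343) or WT 3 (0.0234), and without each of the other 6 arrays the adjusted p was 0.0694 to 0.11. It was 0.154 at a change of 0.56 without the 3 arrays with pancreatic signal.

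The kinase genes upstream did not rise. Atm, which responds to double-strand breaks, read 8.32, 7.46, 6.44 and 7.35 in the null arrays and 8.87, 8.83, 8.32 and 9.13 in the controls. Nix_KO 10 met the lowest control and Nix_KO 3 was far below, a change of -1.39 ± 0.34 (limma adjusted p = 0.0101). The fall was past the threshold in all 8 leave-one-out fits and without the 3 arrays with pancreatic signal (limma adjusted p = 0.0473). A second Atm probe set changed by -0.47 ± 0.23 and did not pass (limma adjusted p = 0.149 over probe sets).

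Atr, the kinase of stalled forks, read 10.08, 9.74, 9.57 and 7.24 against 8.38, 9.40, 10.30 and 9.46. Nix_KO 6 lay far below the other null arrays, the null SD was 1.30, and the change was -0.23 ± 0.59 (limma adjusted p = 0.786). The other tested Atr probe sets spread less, at 0.07 ± 0.23 and -0.17 ± 0.28, and did not pass (limma adjusted p = 0.839 and 0.672 over probe sets). Rad18, the ligase that marks stalled replication clamps for lesion bypass, read 7.26, 7.5, 7.90 and 7.35 against 6.63, 6.83, 6.84 and 6.50. It rose by 0.80 ± 0.18 (limma adjusted p = 0.00593, and 0.0612 without the 3 arrays).

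**Figure D2:**
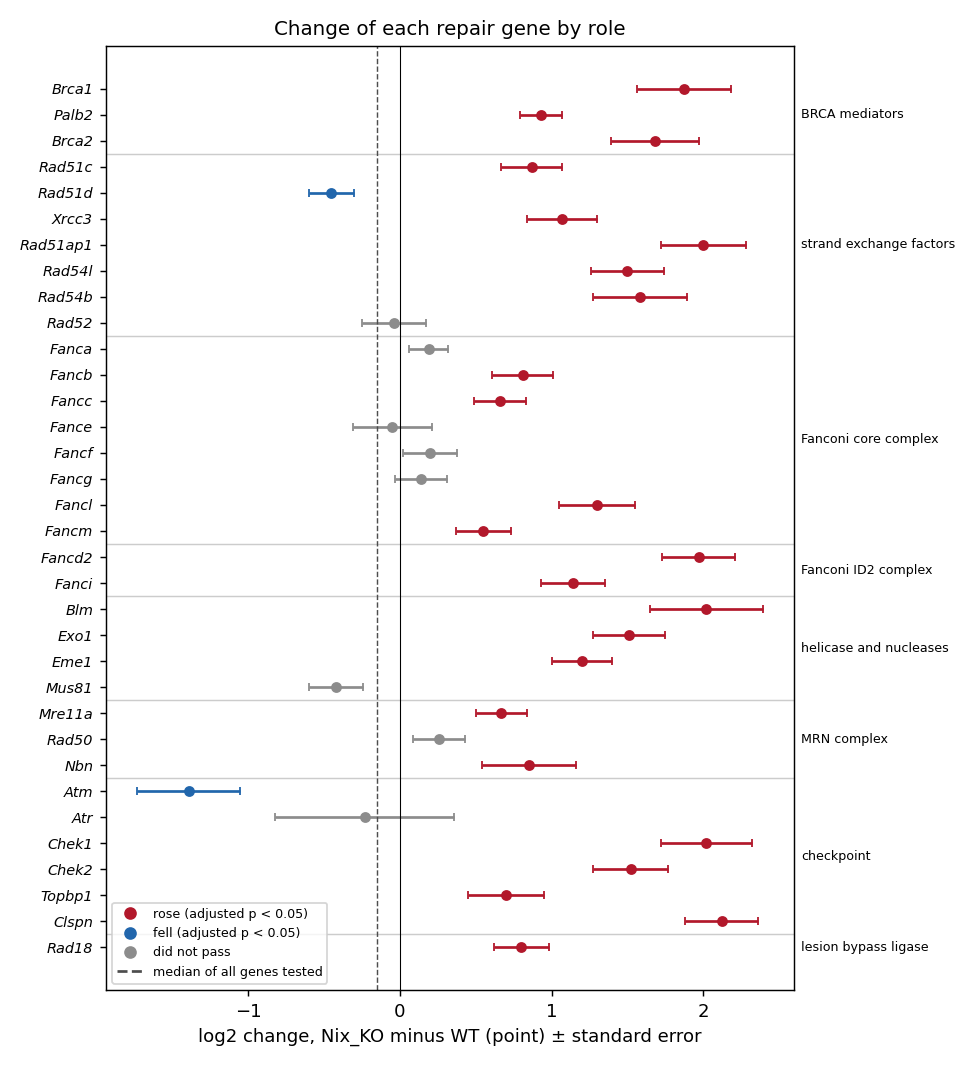
The horizontal axis is the log2 change, Nix_KO minus WT, of each of the 34 tested members with its standard error, coloured by whether it rose, fell or did not pass at an adjusted p of 0.05; the dashed line is the median of all genes, -0.15. Clspn is farthest right at 2.12 and Atm farthest left at -1.39, and 4 of the 8 Fanconi core genes lie near 0.

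By role, the median change was 1.68 for the BRCA mediators, 1.55 for the ID2 pair, 1.36 for the helicase and nucleases, 1.11 for the checkpoint genes and 1.07 for the strand exchange factors. The MRN complex had a median of 0.67 and the Fanconi core 0.37. With 2 to 8 genes in a role, these medians describe the listed genes, and the differences between roles were not tested.

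The members had 85 probe sets, of which 56 passed the filter, 33 rose, 1 fell and 22 did not pass. Among all 22347 probe sets tested, 12.5% rose and 17.6% fell. Without the 3 arrays with pancreatic signal 11 member probe sets rose, and the share over all probe sets is not given for that fit. Several probe sets were tested for 13 genes, and in no gene did 2 of them pass in opposite directions.

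All 4 tested probe sets of Chek1 rose, by at least 1.47-fold with values below 5 set to 5, and all 4 tested ones of Rad51ap1. Both tested probe sets of Fancd2 rose, by at least 2.21-fold and 3.55-fold. The second tested Rad54l probe set was below 5 on every control array and was at least 2.23-fold higher. Probe sets of the same gene differed in call for Atm, for Fancc (0.81, 0.66 and 0.04) and for Rad18 (1.48, 0.80 and 0.66). Adjusted over all probe sets, Rad51d, Nbn and Topbp1 did not pass (limma adjusted p = 0.0548, 0.0693 and 0.0657). The second Rad54b probe set is annotated jointly with the overlapping gene Fsbp. It and the second Rad54l probe set are the 2 of the 33 rising ones with no control array at 5, so they passed the filter only through the null arrays.

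**Figure D3:**
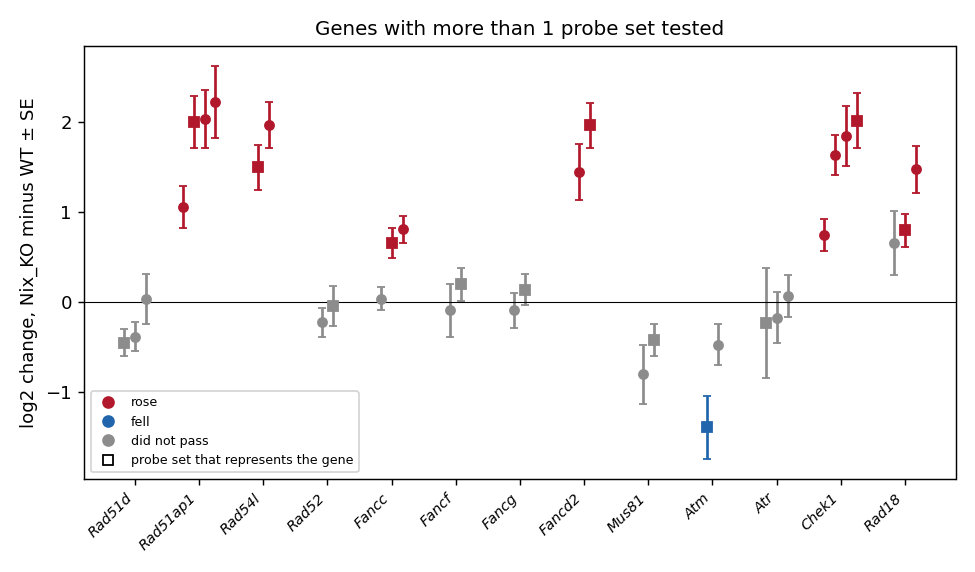
For the 13 genes with several probe sets tested, each symbol is 1 probe set, the vertical axis is its log2 change Nix_KO minus WT with the standard error, colour gives the call over all probe sets, and squares mark the probe set that represents the gene, with values below 5 plotted as deposited. The 4 Chek1 and 4 Rad51ap1 symbols all lie above 0, and the 2 Atm symbols lie at -1.39 and -0.47.

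Within each genotype the arrays differed in the level of the rising members. Relative to the WT mean, the median of the 24 rising genes was 0.45 on WT 3, 0.07 on WT 4, -0.21 on WT 5 and -0.33 on WT 6. In the null arrays it was 0.90 on Nix_KO 10, 1.49 on Nix_KO 2, 1.36 on Nix_KO 3 and 1.52 on Nix_KO 6. WT 3 was the highest control for 20 of the 24 genes, and Nix_KO 10 the lowest null array for 21.

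Markers of dividing cells (led by Mki67 and Top2a, with Ccnb1 not analysed here) had a list mean of 11.20 to 11.77 in null arrays, lowest on Nix_KO 10, and of 9.09 to 10.40 in controls, highest on WT 3 and lowest on WT 5. All 7 tested dividing-cell markers rose, with a median of 2.07. All 8 erythroid markers (Gata1, Klf1, Epor and others) rose, with a list mean of 12.72 to 13.18 against 10.03 to 11.88. All 9 myeloid precursor markers (Mpo, Elane, Prtn3, Ctsg, Ms4a3, Lcn2, Ltf, Camp and Ngp) rose, 9.84 to 11.02 against 6.79 to 9.56. The part of these cells in the repair gene levels was not tested.

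B and T cell markers mostly went the other way. All 7 tested B cell markers (Cd79a, Cd79b and others) fell, with a list mean of 9.90 to 10.62 in null arrays and 11.5 to 11.77 in controls. Of 6 T cell markers (Cd3d, Cd3e, Cd3g and others) 5 fell, 8.64 to 9.68 against 9.63 to 10.26, with overlap. Germinal centre markers, of the B cells that divide, had 0 rising by limma (0 also at an unadjusted p under 0.05) and 2 falling of 5. Bcl6 and S1pr2 fell, while Rgs13, Mybl1 and Gcsam changed by 0.24, 0.22 and -0.29 and did not pass. The germinal centre list mean was 6.08 to 6.84 in null arrays and 6.46 to 7.43 in controls, with overlap. Of 10 pancreatic acinar markers (Cpa1, Cpb1, Prss2 and others) 0 passed in limma, and 0 also at an unadjusted p under 0.05. Without the 3 arrays with pancreatic signal, 6 of 7 dividing, 8 of 8 erythroid and 2 of 9 myeloid precursor markers rose, and 7 B, 2 T and 1 germinal centre markers fell.

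**Figure D4:**
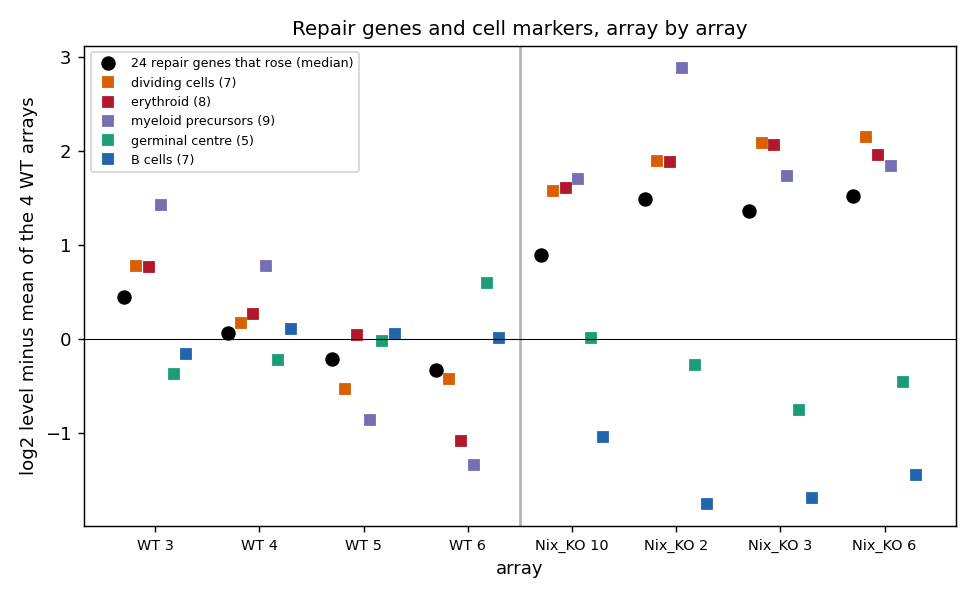
For each of the 8 arrays, the vertical axis gives the log2 level minus the mean of the 4 WT arrays: black circles are the median of the 24 rising repair genes and squares the means of marker lists (number of genes in brackets). Circles, dividing-cell and erythroid squares are lowest on WT 5 or WT 6 and high on all 4 Nix_KO arrays, while B cell squares are low there.

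The wider pathway, a further 49 tested genes of recombination, resection, Fanconi support, checkpoint signalling and break-site chromatin, had 21 rising, 2 falling and 26 that did not pass, with a median of 0.27. The difference from the members was not tested. The shares were 42.9% rising and 4.08% falling, beside 14.2% and 24.1% of all genes. Without the 3 arrays with pancreatic signal 12 rose and 1 fell, with 7.67% of all genes rising. By role, 3 of 3 single-strand binding genes, 5 of 13 resection and resolution genes, 4 of 7 checkpoint genes, 4 of 11 break-site chromatin genes, 3 of 9 Fanconi genes and 2 of 6 strand exchange genes rose.

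The smallest adjusted p-values among rising genes belonged to Gen1, a resolvase of joined molecules, Ube2t, the conjugating enzyme that works with FANCL, Tipin, a fork protection factor, and Rev1, a lesion bypass polymerase. Their changes were 1.77 ± 0.21, 1.79 ± 0.23, 1.83 ± 0.27 and 0.89 ± 0.14 (limma adjusted p = 0.00112, 0.00118, 0.0016 and 0.00188). Ube2t, read with its partner Fancl, was 8.74, 9.71, 9.17 and 9.24 in null arrays and 7.85, 7.53, 7.19 and 7.15 in controls, with no overlap.

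The 2 falling genes were Faap20, a Fanconi core accessory protein, and Trp53bp1, which shields breaks from resection. Faap20 read 8.71, 8.68, 8.30 and 8.59 against 9.25, 9.76, 9.58 and 9.59, groups apart, a change of -0.98 ± 0.16 (limma adjusted p = 0.00211). Trp53bp1 changed by -0.99 ± 0.35 (limma adjusted p = 0.0482). Its call held only without Nix_KO 10 or Nix_KO 3, and over the alternatives other than the replicate block its adjusted p ran from 0.0162 to 0.122.

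DNA replication genes rose in 19 of 20 tested, with a median of 1.19, and in 16 without the 3 arrays. Over all genes 14.2% rose, and 7.67% without those arrays. Cdc6 and Orc1, which license origins, rose by 2.17 ± 0.29 and 1.77 ± 0.24, and Mcm4 and Mcm6, subunits of the replicative helicase, by 1.36 ± 0.17 and 1.29 ± 0.17 (limma adjusted p = 0.00121, 0.00126, 0.00118 and 0.00126). Pold1, the catalytic subunit of a replicative polymerase, was the exception at -0.19 ± 0.15 (limma adjusted p = 0.347).

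In mismatch repair 3 of 5 rose (Pms2 by 0.82, Msh6 by 0.78 and Pms1 by 0.38), with a median of 0.59, and 1 rose without the 3 arrays. Pms1 reached 5 on only 1 of 4 control arrays, and was at least 1.2-fold higher with values below 5 set to 5. Msh6 lost the call without Nix_KO 3, Nix_KO 6, WT 4 or WT 5, and Pms1 on leaving out any of the 8 arrays. In excision repair 3 of 21 rose (14.3%) and 5 fell (23.8%), beside 14.2% and 24.1% of all genes, and the median of -0.15 was also that of all genes. These shares are at the background, so the genes below are named as values only. The rising genes were the base excision glycosylases Neil3, Ung and Mpg, with changes of 2.30, 0.95 and 0.71. Among the falling genes were Ddb2 and Xpc, which recognise ultraviolet damage, at -0.67 and -0.76, and the glycosylases Smug1 and Neil1 at -0.79 and -0.86. The fifth, Ogg1, a glycosylase for oxidised guanine, changed by -0.67 and lost the call without Nix_KO 3, WT 5 or WT 6, and Xpc lost it without WT 4. Without the 3 arrays 2 rose and 0 fell by limma, with 4 lower at an unadjusted p under 0.05. The share of all genes at that unadjusted p is not given.

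End joining, the repair route that needs no sister chromatid, had 1 rising gene (Xrcc6, a Ku subunit, 0.80 ± 0.22, limma adjusted p = 0.017) and 1 falling gene (Poll, a gap-filling polymerase, -0.62 ± 0.20, limma adjusted p = 0.0306) of 7 tested, again near the background shares of 14.2% and 24.1%. The median was -0.13, and without the 3 arrays neither gene passed (limma adjusted p = 0.0544 and 0.114). Xrcc6 also lost the call without WT 5, and Poll without Nix_KO 3, WT 4, WT 5 or WT 6.

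**Figure D5:**
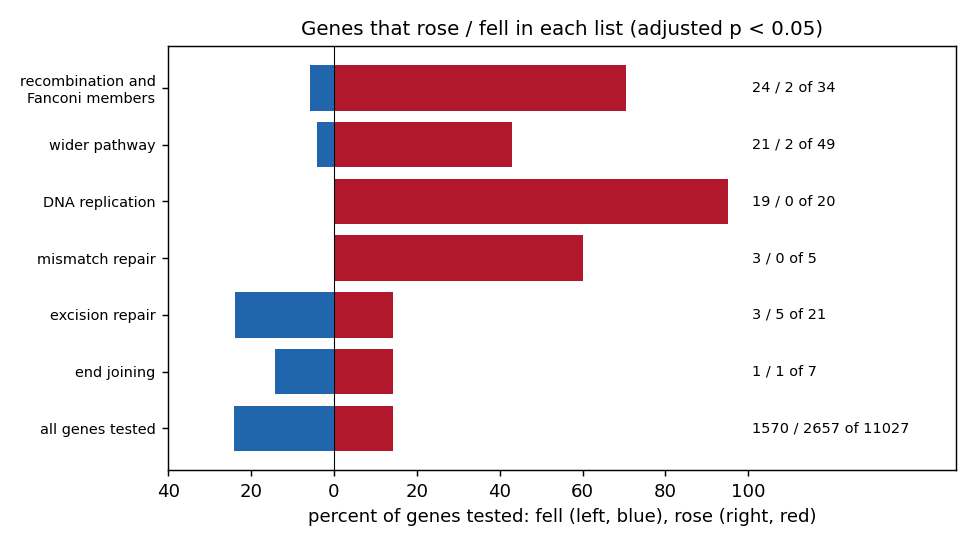
For each gene list, the bars give the percentage of tested genes that fell (left, blue) and rose (right, red) at an adjusted p of 0.05, with the counts written beside them. Recombination and Fanconi members (24 of 34) and replication genes (19 of 20) reach far to the right of the bar for all 11027 genes, while end joining and excision repair do not.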

How the data were processed

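Spleen RNA of 4 Nix null and 4 wild-type mice, 1 array each, was analysed. The authors deposited 1 table of intensities on a linear scale, made with GCRMA per the submitters' processing notes (version and settings not given in the sources used here). Log2 values were taken with no offset, since the test needs a log scale and log2 values had been assumed in planning. The 64 control probe sets were left out. GEO's platform annotation named 1 gene for 34945 probe sets, several for 932 and none for 9160. A probe set was tested if its log2 intensity reached 5 on at least 4 of 8 arrays, and each gene took the brightest (by mean over 8 arrays) of the probe sets naming it alone. The test was limma 3.58.1 (lmFit and eBayes, two-sided, R 4.3.3), with p-values adjusted by Benjamini-Hochberg across every gene or probe set tested and a threshold of 0.05; it was tested on simulated data. Array numbers are those of the sample titles. The p-values measure the spread between these animals, and 4 arrays a group limit the precision. Members, lists and tests were chosen with earlier results of these data known. Named from other lists were up to 4 rising and 4 falling genes with the smallest adjusted p; all members were named, and Ogg1 was named after its values were seen. Promoters came from RefSeq (GRCm38.p6). Figures used Python 3.11.15 and matplotlib 3.10.9. Alternatives were other filters, scalings, array weights, a floor, the mean of probe sets, a replicate block and arrays left out.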

Additional observations from a re-analysis of the deposited data

Results flagged for a closer look

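Over 112 groups of 4 arrays (56 member probe sets in 2 genotypes), 5 had an end array whose gap to its nearest neighbour, divided by the group's range, exceeded Dixon's critical value; chance alone gives about 1 in 20. Xrcc3 read 6.20 on WT 3, against 5.67 to 5.74 on the other controls. Fancb read 6.08 on WT 3, against 5.51 to 5.54. Nbn read 7.42 on Nix_KO 6, against 6.50 to 6.66 on the other null arrays. Rad52 read 6.37 on Nix_KO 2 with its brighter probe set, against 7.11 to 7.26, and 6.16 on WT 5 with its other tested probe set, against 6.48 to 6.53.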

How the results depend on the processing

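The number of rising member genes stayed between 21 and 24 in the leave-one-out fits and under the other filters, scalings, weights and floor. It was 17 without the 3 arrays with pancreatic signal and 14 with the replicate block, where 772 of all 11027 genes rose. The block has a term for each title number, so only numbers 3 and 6, which occur in both genotypes, inform its genotype change. The number of falling members was 2, and 1 with arrays centred on their medians, with quantile normalization, without the 3 arrays, with the block or with the mean of a gene's probe sets; leaving out 1 array gave 1 to 3, and array weights 3, Mus81 being the third. Member probe sets that rose numbered 11 without the 3 arrays (34 at an unadjusted limma p under 0.05) and 0 with the block (30 unadjusted), against 33; those that fell numbered 2 without a filter, 5 with array weights, 0 without the 3 arrays, 0 with the block (2 unadjusted in each), and 0 to 2 with 1 array left out. Without the 3 arrays the wider pathway had 12 rising and 1 falling, mismatch repair 1 rising, end joining 0 and 0 (1 and 1 at an unadjusted limma p), and excision repair 0 falling (4 unadjusted). With the block the wider pathway had 9 rising and 0 falling by limma (17 and 2 unadjusted), so Faap20 lost its call, replication had 12 rising, mismatch repair 0 (3 unadjusted), end joining 0 and 0 (0 and 1 unadjusted), excision repair 1 rising and 0 falling (3 and 3 unadjusted), and myeloid precursor markers 2 rising. The unadjusted counts here are given without the share over all genes or probe sets, so they cannot be set against a background. Centring gave 1 falling in the wider pathway and 0 in end joining. With 1 array left out, 1 to 2 genes of the wider pathway fell, 0 to 1 of end joining rose and 0 to 1 fell, and 1 to 2 of mismatch repair rose. In each of these the cause was not tested. Changes near 0 turned sign: Rad52 was 0.09 with centring, 0.10 with quantile normalization, 0.05 with array weights, 0.13 with the block and -0.13 to 0.16 with 1 array left out; Fance was 0.07, 0.06 and 0.18 with centring, quantile normalization and without the 3 arrays, and -0.28 to 0.16 with 1 array left out; Atr was 0.10 with array weights and -0.56 to 0.41 with 1 array left out. Over all genes, 37.1% of calls were rises, and 47.8% with centring, which moved the median of all genes from -0.15 to -0.02. Title numbers 3 and 6 occur in both genotypes but name different animals; their deviations correlated across genes at 0.36 and 0.12, which does not establish a pairing from 2 numbers.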
